A study of Mus musculus with 12 samples.

Results

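The genes described here are the insulin-like growth factor gene Igf1, the receptor genes Igf1r and Igf2r, and 6 binding protein genes, Igfbp2, Igfbp3, Igfbp4, Igfbp5, Igfbp6 and Igfbp7. They were chosen by symbol, as 9 of the 31053 genes counted, of which 22476 had at least 1 UMI (unique molecular identifier, the tag that counts each captured transcript once). All 9 had UMIs. Single-cell RNA sequencing with 10x 3' v3 chemistry was run on mouse cells from tracheal allografts, native tracheas and spleen, with 4 samples from each source. The cells of the 4 samples of a source were deposited as 1 pooled table, with no map from cells to samples in the tables used here. Each source was therefore 1 library, and no test between sources was possible. The study's title concerns mononuclear phagocytes in the fibrosis of obliterans bronchiolitis after transplantation.

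The groups were tracheal allograft cells, native trachea cells and splenocytes. The labels used here give no strain, sex, age, time after grafting or treatment, and do not say which animals the spleens came from. Both trachea sources are labelled as mesenchymal progenitors. The data go against that label, because 98 of 3858 allograft cells and 962 of 4148 native cells fell in clusters with mesenchymal markers, and most others carried leukocyte markers. The spleen library held 4573 cells. The cells used held medians of 4965, 6552.5 and 4430 UMIs in the allograft, native and spleen libraries. Of the cell barcodes, 4 were shared by the allograft and native libraries, 4 by the allograft and spleen libraries and 7 by the native and spleen libraries.

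IGF-1, the protein made from Igf1, is a secreted growth factor that acts through the tyrosine kinase receptor encoded by Igf1r and drives growth and survival of many cell types, fibroblasts and chondrocytes among them. The IGF-2 receptor encoded by Igf2r is also the cation-independent mannose 6-phosphate receptor, which sorts lysosomal enzymes and clears IGF-2. The binding proteins hold IGFs outside the cell, where they can block or prolong their action; IGFBP7 binds IGFs weakly. Macrophages and mesenchymal cells are known sources of Igf1 in tissues.

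The annotation (GENCODE M21, GRCm38) places Igf1 (ENSMUSG00000020053) at chr10:87858265-87937042 on the plus strand. The receptor genes are Igf1r (ENSMUSG00000005533) at chr7:67952827-68233668 on the plus strand and Igf2r (ENSMUSG00000023830) at chr17:12682406-12769664 on the minus strand. Igfbp2 (ENSMUSG00000039323) at chr1:72824503-72852474 on the plus strand and Igfbp5 (ENSMUSG00000026185) at chr1:72857932-72874884 on the minus strand lie tail to tail. Igfbp3 (ENSMUSG00000020427) lies at chr11:7206086-7213923 on the minus strand, and Igfbp4 (ENSMUSG00000017493) on the same chromosome at chr11:99041244-99054392 on the plus strand. Igfbp6 (ENSMUSG00000023046) lies at chr15:102144362-102149511 on the plus strand. Igfbp7 (ENSMUSG00000036256) lies at chr5:77349240-77408041 on the minus strand.

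The sequences just before the RefSeq start of Igf1, Igfbp4, Igfbp5 and Igfbp6 are shown because the results turn on them: Igf1 and Igfbp4 shared macrophages as a source, and mesenchyme was the main source of Igfbp5 and Igfbp6. Each is the 250 bases upstream of the RefSeq start (GRCm38.p6), 5′ to 3′ on the gene's own strand. RefSeq entries were found for all 9 genes. The RefSeq start of Igf1 lies downstream of the GENCODE gene start given above, so its window falls inside the GENCODE gene. Capitals mark a match to GAGGAAG (a core bound by the myeloid factor PU.1), TATAAA or GGGCGG on either strand. The Igf1 window is chr10:87860861-87861110 (plus), the Igfbp4 window chr11:99040994-99041243 (plus), the Igfbp5 window chr1:72874866-72875115 (minus) and the Igfbp6 window chr15:102143936-102144185 (plus).
Igf1: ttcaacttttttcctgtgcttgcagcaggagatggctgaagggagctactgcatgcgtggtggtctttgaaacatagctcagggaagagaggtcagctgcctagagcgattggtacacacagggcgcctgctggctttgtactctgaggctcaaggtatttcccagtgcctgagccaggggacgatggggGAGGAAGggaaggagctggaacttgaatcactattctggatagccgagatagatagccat
Igfbp4: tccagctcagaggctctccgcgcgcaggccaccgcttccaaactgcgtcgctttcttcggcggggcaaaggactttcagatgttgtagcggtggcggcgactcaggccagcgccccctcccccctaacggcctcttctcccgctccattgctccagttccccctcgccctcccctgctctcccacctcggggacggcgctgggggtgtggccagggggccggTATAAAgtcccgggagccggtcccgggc
Igfbp5: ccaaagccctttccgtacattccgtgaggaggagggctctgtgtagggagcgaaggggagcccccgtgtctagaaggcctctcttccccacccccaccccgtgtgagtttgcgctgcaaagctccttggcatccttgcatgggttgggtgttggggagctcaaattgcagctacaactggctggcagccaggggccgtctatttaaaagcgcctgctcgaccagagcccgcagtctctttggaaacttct
Igfbp6: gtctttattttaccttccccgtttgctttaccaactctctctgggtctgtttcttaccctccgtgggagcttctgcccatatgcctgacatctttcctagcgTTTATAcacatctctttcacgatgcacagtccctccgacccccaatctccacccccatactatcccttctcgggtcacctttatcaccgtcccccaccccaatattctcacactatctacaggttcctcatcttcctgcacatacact

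The Igf1 window held GAGGAAG once, a run of letters found in 10.6% of 32851 promoter windows of the same length. The Igfbp4 window held TATAAA on its own strand, and the Igfbp6 window held it on the other strand, where it reads TTTATA; 12.4% of windows held it on either strand. GGGCGG, present in 32.7% of windows, was in none of the 4 shown, and the Igfbp5 window held none of the 3 motifs. CpG dinucleotides numbered 5 in the Igf1 window, 22 in Igfbp4, 10 in Igfbp5 and 7 in Igfbp6. These matches describe letters and name no site in use.

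Levels are given as CPM, a gene's UMIs for each 1000000 UMIs of the cells summed. The chemistry counts 1 end of each transcript, and levels are compared for 1 gene across cells and libraries, not between genes. Intervals are 95% and cover counting error only, not the spread between animals. A ratio is the allograft CPM divided by the native CPM, and a gene is called higher or lower where the libraries differed 2-fold or more with 10 or more UMIs in all.

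Over all cells the ligand was at a like level in both tracheas, while most binding protein genes were far lower in the allograft library. Igf1 had 3740 UMIs in the allograft library (146.8 CPM), 4255 in the native library (138.5 CPM) and 101 in the spleen library (3.62 CPM). The 2 trachea libraries thus lay close together for Igf1, at a ratio of 1.06 (interval 1.01 to 1.11), with spleen far below both. Igf1r stood at 54.0, 66.6 and 33.7 CPM in the allograft, native and spleen libraries. Igf2r stood at 52.0, 35.8 and 18.6 CPM. Both receptor genes kept the tracheas within 2-fold of each other, at ratios of 0.811 and 1.45.

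The binding protein genes were lower in the allograft library without exception. Igfbp6 had 721 allograft UMIs (28.3 CPM) against 44830 native UMIs (1459 CPM), 51.5-fold lower. Igfbp7 had 1962 UMIs (77.0 CPM) against 47647 (1551 CPM), 20.1-fold lower. Igfbp3 stood at 4.00 against 102.6 CPM, 25.5-fold lower, and Igfbp5 at 19.1 against 464.7 CPM, 24.3-fold lower. Igfbp2, a binding protein with a preference for IGF-2, had 2 allograft UMIs and 766 native UMIs (0.0785 against 24.9 CPM). Igfbp4 was the least apart, at 191.4 against 525.4 CPM or 2.75-fold lower.

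So 6 of the 9 genes were called lower in the allograft library, where 19.6% of the 16486 genes measured were called lower, and 0 were called higher, where 7.19% were. The median log2 ratio was -4.33 over the 9 genes and 0.01 over all genes measured. In the spleen library Igfbp2 and Igfbp3 had 0 UMIs, Igfbp5 had 1, Igfbp6 had 16 and Igfbp7 had 21, while Igfbp4 had 768 (27.5 CPM). Over all cells, fewer cells of a type and less RNA per cell cannot be told apart, and mesenchymal clusters made up 962 cells of the native library against 98 of the allograft library. The summed level of the 8 fibroblast markers, all of them measured in both libraries, was 1389 CPM in the allograft library and 6249 CPM in the native library.

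**Figure D1:**
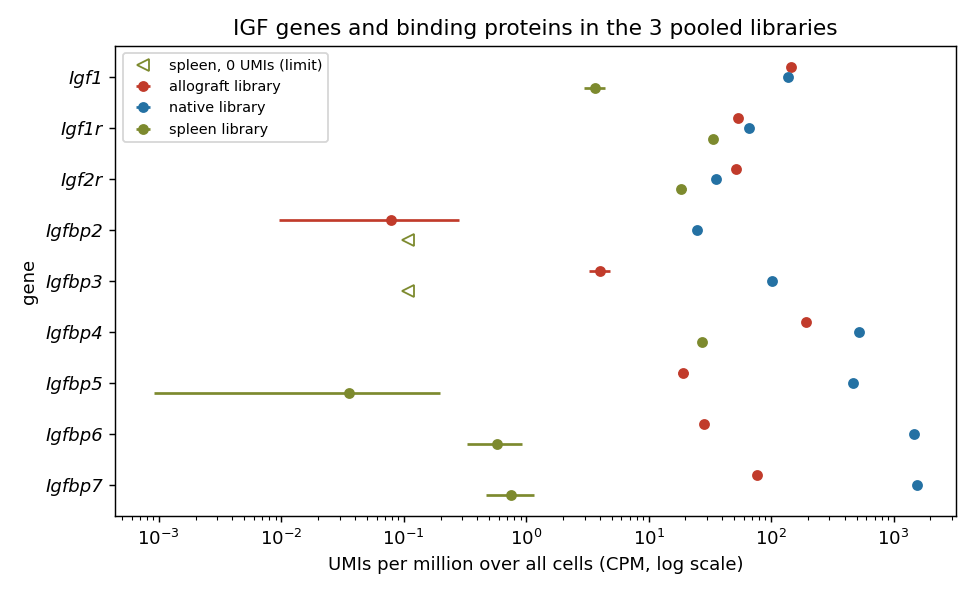
Level of each gene (CPM over all cells, log scale) in the allograft, native and spleen libraries; points are single pooled libraries, bars are 95% counting intervals and open triangles are limits for 0 UMIs. Igf1 sits at 146.8 and 138.5 CPM in the tracheas, while Igfbp6 sits at 28.3 CPM in the allograft and 1459 CPM in the native library.

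Cells were grouped without using the 9 genes or the wider IGF pathway list, so the values by cluster are not set by the grouping. Of 25 clusters, cluster 1 (led by Ccl8, Arg1 and Cxcl9) and cluster 2 (led by Lyve1, Folr2 and Cd163) carried macrophage markers. They held 1788 allograft and 1554 native cells together. Cluster 1 held 1623 of those allograft cells and cluster 2 held 1408 of those native cells, and a cluster mostly of 1 library may be that library and not a cell type. Cluster 3 (led by Mmp12, Gpnmb, Ccl17 and Cd209a; 677 allograft and 569 native cells) mixed macrophage and dendritic markers and was left unnamed. Cluster 6 (611 cells, all native) carried fibroblast markers, and cluster 7 (98 allograft and 351 native cells) mixed fibroblast, chondrocyte and smooth muscle or pericyte markers.

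Macrophage-marker clusters held most Igf1 transcripts in both tracheas. They held 61.8% of Igf1 UMIs in the allograft library (exact binomial interval 60.3 to 63.4%) and 66.4% in the native library (64.9 to 67.8%). The rest came from different cells: cluster 3 held 26.9% of allograft Igf1 UMIs and 1.69% of native ones, and the mesenchymal clusters held 10.5% and 29.9%. Over the macrophage-marker sub-clusters of clusters 1, 2 and 3 (1.0, 1.1, 2.0, 2.1, 2.2 and 3.0), the allograft share was 80.6%. That set leaves out sub-clusters 1.2 and 1.3 of cluster 1. The 98 allograft mesenchymal cells that gave 10.5% of Igf1 UMIs were 2.54% of the cells.

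Within the pooled macrophage-marker clusters, Igf1 was lower in the allograft library but not by 2-fold. It had 2313 UMIs in allograft macrophages (185.8 CPM) and 2824 in native ones (293.2 CPM), a ratio of 0.634 (0.600 to 0.670). An Igf1 UMI was found in 42.7% of allograft cells (median 6399 UMIs a cell) and 64.5% of native cells (median 5993.5). In clusters of B, plasma and natural killer cells, which should lack the gene, 1 of 207 allograft cells had one (median 3754 UMIs), and 59 native cells (median 5155) had 0 UMIs, a limit of 8.50 CPM. The macrophage level was thus well above the background of both libraries.

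The comparison of the libraries differed from cluster to cluster. In cluster 2, Igf1 stood at 325.4 CPM in 165 allograft cells and 321.2 CPM in 1408 native cells, a ratio of 1.02 (0.874 to 1.17). In cluster 1 it stood at 178.5 CPM in 1623 allograft cells and 58.6 CPM in 146 native cells, 3.02-fold higher in the allograft library (2.36 to 4.01). In cluster 3 it stood at 139.7 against 12.6 CPM, 11.02-fold higher (8.72 to 14.3). Thus no single cluster of the 3 had less Igf1 in the allograft library, although the ratio over clusters 1 and 2 was below 1. Most allograft macrophages were in cluster 1, which had the lower Igf1 level, and most native ones in cluster 2. Cluster 1 differed in make-up between the libraries, with 347 of its 1623 allograft and 65 of its 146 native cells in monocyte-marker sub-cluster 1.2. Cluster 3 also differed in make-up between the libraries, with a summed macrophage list of 17440 CPM against 3147 CPM and a summed dendritic list of 190 against 1020 CPM.

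Sub-clusters narrowed the sources further. Sub-cluster 3.0, led by Mmp12, Gpnmb and Spp1, held 355 allograft cells and 21.5% of the library's Igf1 UMIs, at 227.8 CPM (212 to 244). Sub-clusters 1.0 and 1.1 stood at 223.0 and 274.3 CPM in the allograft library. The 71 native cells of sub-cluster 1.0 stood at 103.2 CPM. Sub-cluster 1.2, which carried classical monocyte markers such as Ly6c2, stood at 26.9 CPM in the allograft and 3.92 CPM in the native library. Igf1 was therefore high in the sub-clusters of cluster 1 named by macrophage markers and low in the monocyte-marker one. Unnamed sub-cluster 1.3 (led by Arg1 and Nos2; 74 allograft cells) was also low, at 31.5 CPM. So was unnamed sub-cluster 2.3 of cluster 2 (56 native cells), at 35.8 CPM. Among native cells, sub-cluster 2.0 (led by Cd209f, Vsig4 and Lyve1) stood at 386.2 CPM and sub-cluster 2.1 at 294.2 CPM. The dendritic-marker sub-cluster 3.1 (led by Cd209a and Ccl17) had 0 allograft UMIs and 3.45 CPM in the native library.

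The binding protein gene Igfbp4 was the member that shared the macrophages with Igf1. IGFBP4 is best known as an inhibitor of IGF action that is removed by the protease PAPP-A. Igfbp4 had 2865 UMIs in allograft macrophage-marker clusters (230.2 CPM) and 4894 in native ones (508.2 CPM), 2.21-fold lower in the allograft library. In cluster 2 it stood at 552.5 against 560.3 CPM, and in cluster 1 at 213.3 against 70.3 CPM, 3.01-fold higher in the allograft library (2.40 to 3.89). These ratios were close to those of Igf1 in the same clusters. Within sub-cluster 1.0, Igfbp4 stood at 295.5 CPM in 652 allograft cells and 131.3 CPM in 71 native cells. In cluster 3, where Igf1 was 11.02-fold higher, Igfbp4 stood at 26.1 against 21.0 CPM (ratio 1.24). The B, plasma and natural killer clusters stood at 2.01 CPM in the allograft and 8.50 CPM in the native library.

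The phagocytes of the allograft included cells with both transcripts and cells with Igf1 and little Igfbp4. Sub-clusters 1.0 and 1.1 stood at 295.5 and 295.7 CPM of Igfbp4, and sub-cluster 2.2 at 588.1 CPM (Igf1 334.4 CPM). Sub-cluster 3.0, whose Igf1 level was 227.8 CPM, stood at 27.2 CPM of Igfbp4 (22.0 to 33.2). Among the 5 sub-clusters of macrophage clusters 1 and 2 with Igf1 above 100 CPM and 50 or more cells in a library, none had so low an Igfbp4 level. Within macrophage-marker clusters, Igfbp4 was found in 75.5% of allograft cells with an Igf1 UMI (577 of 764) and in 35.9% of those without. The native values were 87.5% (877 of 1002) and 58.0%; depth per cell was not held equal in these shares.

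**Figure D2:**
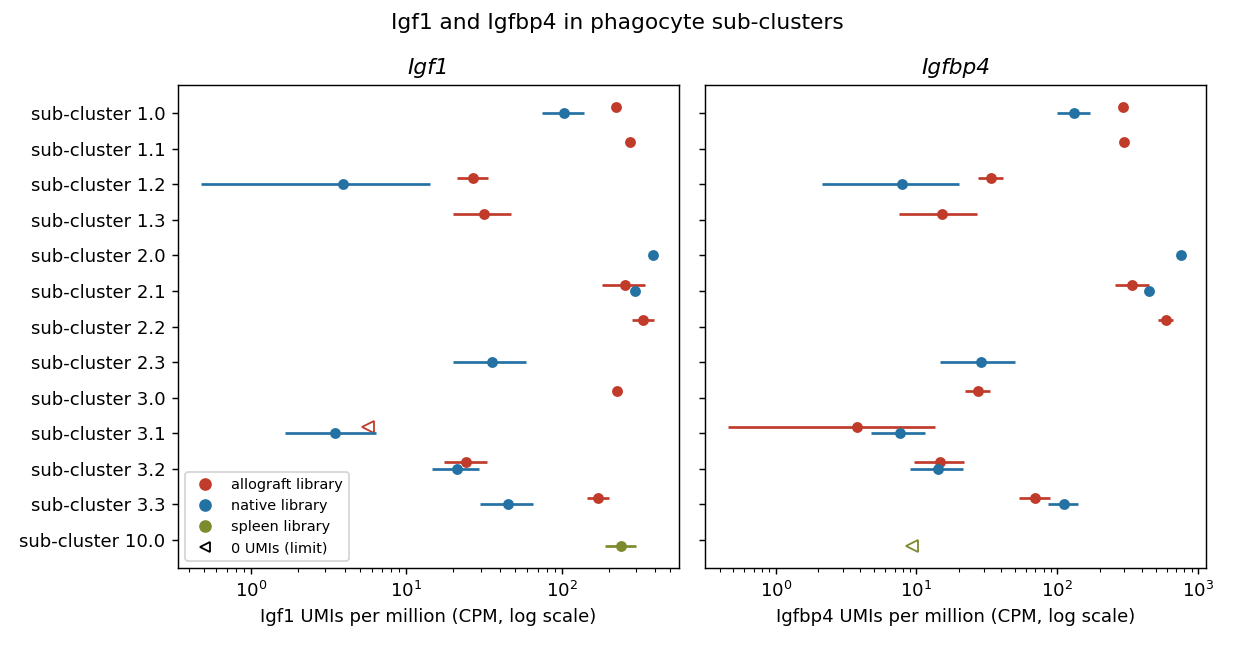
Igf1 (left) and Igfbp4 (right) CPM, log scale, in sub-clusters of macrophage-marker clusters 1 and 2, of unnamed cluster 3 and in spleen sub-cluster 10.0; points are pooled libraries of 20 or more cells with 95% counting intervals and triangles are limits for 0 UMIs. Sub-cluster 3.0 stands at 227.8 CPM of Igf1 but 27.2 CPM of Igfbp4, and sub-cluster 2.0 is high for both.

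In the spleen library, most Igf1 UMIs were in 1 small group of cells. Sub-cluster 10.0 (85 spleen cells, led by Cd5l, with 621.9 CPM of Cd5l and 1278 CPM of Vcam1, genes of red pulp macrophages) held 77 of the 101 Igf1 UMIs, or 76.2%. Its Igf1 level was 239.4 CPM (189 to 299), in 40 of 85 cells, within the range of the tracheal macrophage sub-clusters. Igfbp4 had 0 UMIs there. This sub-cluster was left unnamed, because erythroid transcripts (Hbb-bs 30562 CPM) and B cell transcripts (Cd79a 1505 CPM) led or accompanied its markers; their part in the values was not tested.

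The other binding protein genes were low in macrophage-marker clusters. Igfbp6 stood at 2.25 CPM in allograft and 20.2 CPM in native macrophages, and Igfbp7 at 4.34 and 32.8 CPM. Native neutrophils of cluster 4 stood at 56.2 CPM of Igfbp6 and 48.8 CPM of Igfbp7, above the macrophages in CPM. They held a median of 1943.5 UMIs a cell, against 5875 in native cluster 2. By share of cells they were not above native cluster 2: Igfbp6 was found in 10.5% against 10.9%, and Igfbp7 in 10.2% against 18.1%. Allograft neutrophils of cluster 4 stood at 33.9 CPM of Igfbp6, also above the macrophages, and had 1 Igfbp7 UMI (0.891 CPM). For each 100 Igfbp7 UMIs the native library held 97.1 Igfbp6 UMIs in mesenchyme, 61.7 in macrophages and 72.6 in the thymocyte-marker cluster 15, whereas Igfbp4 gave 23.8 in mesenchyme and 1549 in macrophages. In native cluster 15, 1 cell had 24 of the 45 Igfbp6 UMIs and 1 cell had 35 of the 62 Igfbp7 UMIs. In the native clusters 3, 4 and 8 the Igfbp6 value was 44.3, 115.4 and 53.3, the last from 8 against 15 UMIs. In the allograft library it was 35.8 in mesenchyme, 51.9 in macrophages and 361.5 in cluster 3 (47 against 13 UMIs). Of those 47 Igfbp6 UMIs of cluster 3, 13 were in 1 cell. Allograft cluster 4 had 38 Igfbp6 UMIs against 1 of Igfbp7, and cluster 8 had 2 against 25. These proportions are set side by side across groups of cells and do not compare the levels of the genes. The source of the UMIs outside mesenchyme was not tested.

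By the 2-fold rule, 5 of the 8 genes measured in macrophage-marker clusters were lower in the allograft library (Igfbp3, Igfbp4, Igfbp5, Igfbp6 and Igfbp7), where 10.5% of 13077 genes were, and 1 was higher (Igf2r), where 6.9% were. Their median log2 ratio was -1.88 against 0.03 over all genes. Of the 5 lower genes, Igfbp3 had 4 and 23 UMIs and Igfbp5 had 13 and 64. The summed fibroblast list, with 0 of 8 markers at 0 in either library, was 67.0 CPM in allograft and 115 CPM in native macrophages; its part in these ratios was not tested. Within cluster 1, 3 of 7 genes measured were lower (7.68% of all genes) and 2 higher (12%). Within cluster 2, 2 of 8 were lower (10.7%) and 1 higher (9.79%), and within cluster 3, 3 of 8 were lower (7.2%) and 2 higher (20%).

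Igf2r was the receptor gene that was higher in allograft phagocytes. It had 297 UMIs in allograft macrophage-marker clusters (23.9 CPM) and 66 in native ones (6.85 CPM), 3.46-fold higher (2.66 to 4.62). Over the alternatives run this ratio lay between 3.42 and 6.86, the highest with clusters at resolution 1.0. The direction was the same in each cluster: 24.1 against 11.7 CPM in cluster 1, 19.3 against 6.27 CPM in cluster 2, and 69.8 against 11.2 CPM in cluster 3. Only cluster 1 was under the 2-fold threshold, at 1.98-fold. In cluster 3 the difference was 6.19-fold (4.796 to 8.21), from 503 allograft and 64 native UMIs. Cluster 3 held 38.0% of the allograft library's Igf2r UMIs, the macrophage-marker clusters 22.4% and the mesenchymal clusters 14.9%. In the native library the mesenchymal clusters held 65.8%.

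Among clusters with 50 or more cells in a library, Igf1r, the signalling receptor gene, was highest in neutrophils and not in the cells with most Igf1. Neutrophil-marker cluster 4 stood at 386.6 CPM in 606 allograft cells and 350.2 CPM in 580 native cells, a ratio of 1.104 (0.966 to 1.26). Spleen neutrophils of cluster 14 stood at 404.5 CPM, so the 3 libraries were alike. Neutrophils with granule genes (cluster 16, led by Camp, Ngp and Ltf) were lower, at 152.3 CPM in 73 spleen cells. Cluster 4 held 31.6% of the allograft library's Igf1r UMIs from 4.41% of all its UMIs. Its cells held few transcripts, with medians of 1716 UMIs in the allograft and 1944 in the native library.

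Igf1r was low in the phagocytes with Igf1. It stood at 34.7 CPM in allograft and 48.2 CPM in native macrophage-marker clusters (ratio 0.721), and at 20.4 and 30.3 CPM in cluster 3. Among lymphoid cells it was low in spleen B cells of cluster 0 (2.26 CPM) and in T cells of cluster 5 (25.6 CPM in spleen) and higher in the Foxp3, Il21 and Pdcd1 T cell cluster 11 (203.8 CPM). In the mixed T and innate lymphoid cluster 8 it stood at 85.6 CPM in the allograft and 151.2 CPM in the native library. Sub-cluster 8.5, whose leading genes Trdc, Tcrg-C1 and Il23r mark gamma-delta T cells, stood at 915.6 CPM in 9 allograft cells and 449.9 CPM in 16 native cells. That was the highest Igf1r level among the sub-clusters with 5 or more cells of a library, from 34 and 30 UMIs. Cluster 23, with basophil or mast cell markers, stood at 140.7 CPM in 15 allograft cells (13 UMIs) and 813.6 CPM in 6 spleen cells (14 UMIs). In 6 native cells it stood at 73.6 CPM, from 1 UMI.

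**Figure D3:**
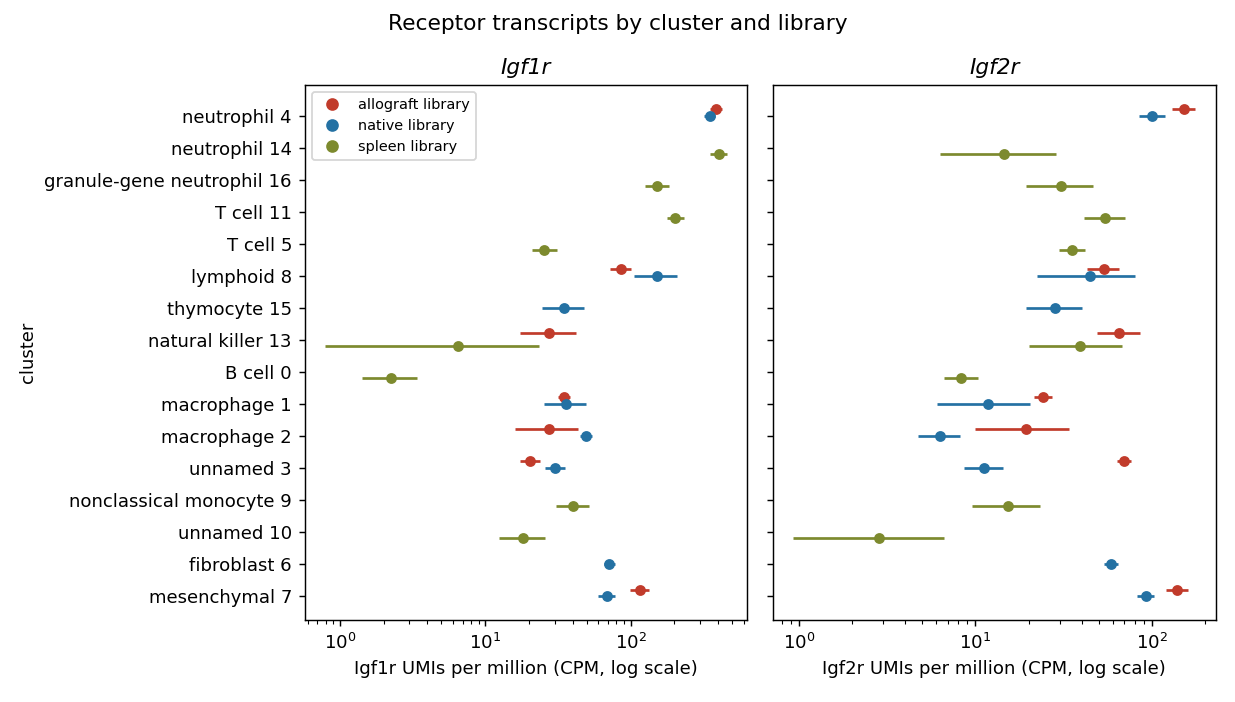
Igf1r (left) and Igf2r (right) CPM, log scale, by cluster and library; points are pooled libraries with 95% counting intervals. Neutrophil clusters 4 and 14 lie between 350.2 and 404.5 CPM of Igf1r, and cluster 3 shows 69.8 CPM of Igf2r in the allograft against 11.2 CPM in the native library.

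In mesenchyme, Igf1 and Igf2r were higher in the allograft library, while 5 binding protein genes were lower. Igf1 had 392 UMIs in 98 allograft cells (278.6 CPM) and 1272 UMIs in 962 native cells (121.8 CPM), 2.29-fold higher (2.04 to 2.56). Igf2r stood at 140.0 against 69.2 CPM, 2.03-fold higher (1.72 to 2.37). Igf1r stood at 115.8 against 70.4 CPM, a ratio of 1.65 that did not pass 2-fold. All 98 allograft cells were in cluster 7, while 611 native cells were in fibroblast-marker cluster 6, where Igf1 stood at 83.4 CPM. Within cluster 7 alone Igf1 was 1.34-fold higher (278.6 against 207.7 CPM), Igf1r 1.69-fold and Igf2r 1.52-fold, so none of the 3 passed 2-fold there.

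The binding protein genes kept their direction in both views, apart from Igfbp4. Igfbp6 stood at 428.5 CPM in allograft and 4245 CPM in native mesenchyme, 9.90-fold lower. Igfbp7 stood at 1197 against 4370.0 CPM (3.65-fold lower), Igfbp5 at 332.6 against 1338 CPM (4.02-fold lower) and Igfbp3 at 57.6 against 289.9 CPM (5.01-fold lower). Igfbp2 had 0 UMIs in the allograft and 741 in the native mesenchyme, at least 33.3-fold lower against a floor of 3 UMIs in the library. Within cluster 7 alone the folds were 3.64 for Igfbp6, 2.39 for Igfbp7, 3.32 for Igfbp5 and 7.06 for Igfbp3, all lower in the allograft library. Cluster 7 was not a like mixture in the libraries. Its sub-cluster 7.0 held 189 of the 351 native cells and 1 allograft cell, and 1017 of the 1319 native Igfbp3 UMIs of the cluster. Igfbp2 was among the leading genes of sub-cluster 7.0. Igfbp4 was at 1240.0 against 1039 CPM in all mesenchyme (ratio 1.19) but 1240.0 against 1584 CPM in cluster 7 (ratio 0.783), so its direction depended on the cells compared.

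By the 2-fold rule, 5 of 9 genes were lower in allograft mesenchyme, where 12.7% of 13180 genes were, and 2 were higher (Igf1 and Igf2r), where 18% were. The median log2 ratio was -1.87 over the 9 genes and 0.11 over all genes. In cluster 7 alone 5 were lower (12.3% of all genes) and 0 higher (11.9%). Scaling by the median of ratios also left 0 genes 2-fold higher in mesenchyme. The cell types within mesenchyme differed between the libraries: the summed chondrocyte list was 7480 CPM in the allograft and 185 CPM in the native cells, the fibroblast list 24217 and 18055 CPM. Macrophage markers, 12 of 12 measured in both, summed to 3765 and 1341 CPM; their part in the result was not tested.

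**Figure D4:**
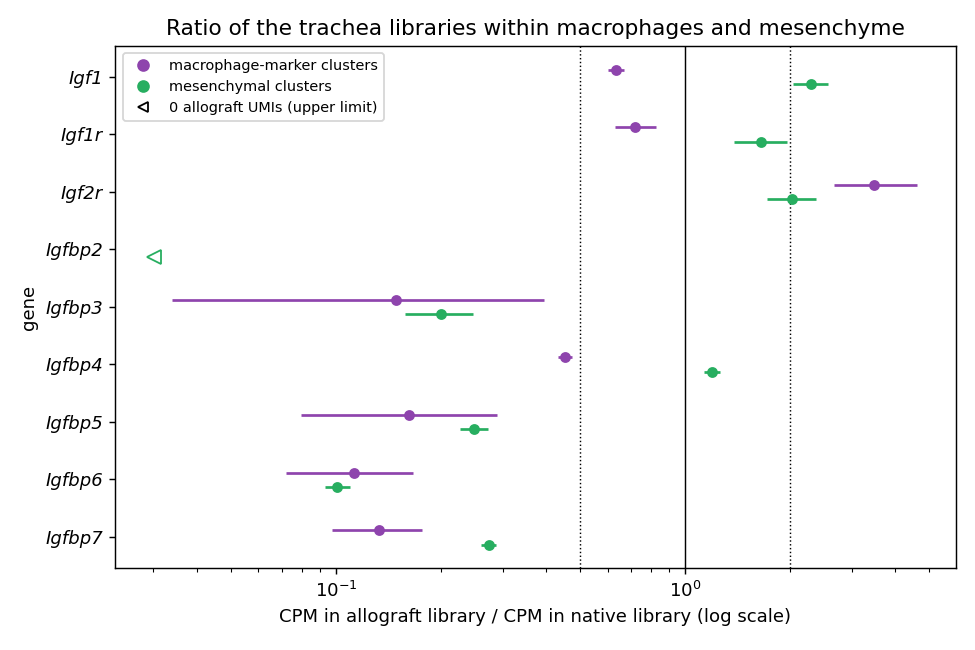
Allograft CPM divided by native CPM (log scale) for each gene in macrophage-marker clusters 1 and 2 and in mesenchymal clusters 6 and 7, with 95% counting intervals; dotted lines mark 2-fold and the triangle marks Igfbp2, with 0 allograft UMIs. Igf1 and Igfbp4 lie below 1 in macrophages (0.634 and 0.453) and above 1 in mesenchyme (2.29 and 1.19).

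Sub-clusters of cluster 7 separated fibroblasts from chondrocytes, with few allograft cells in each, so values are given side by side. In the fibroblast-marker sub-cluster 7.1 (led by Sfrp4, Postn and Cthrc1; 29 allograft and 94 native cells), Igf1 stood at 745.4 CPM in the allograft and 266.4 CPM in the native library. Igfbp4 there stood at 3617 and 1227 CPM. That sub-cluster alone held 29.6% of the allograft library's Igfbp4 UMIs, and 1 of its cells had 229 of them. Igfbp6 stood at 1488 and 2618 CPM, Igfbp5 at 1052 and 1756 CPM, Igfbp7 at 1754 and 2469.7 CPM, and Igfbp3 at 198.3 and 222.0 CPM. Ligand and Igfbp4 were thus above the native level in this sub-cluster, and Igfbp3, Igfbp5, Igfbp6 and Igfbp7 at or below it. Its allograft and native cells were not alike. Col3a1 stood at 21491 against 4369 CPM, Postn at 1850 against 208 CPM and Dcn at 8882 against 16157 CPM.

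In the chondrocyte-marker sub-cluster 7.2 (67 allograft and 30 native cells), Igf1 stood at 95.04 CPM in the allograft and 175.2 CPM in the native library. Igfbp4 stood at 300.1 and 949.5 CPM, Igfbp5 at 24.0 and 921.6 CPM, and Igfbp6 at 10.00 and 1023 CPM. Igfbp7 differed less, at 928.4 and 1566 CPM. The chondrocyte marker Col2a1 was at 5104 CPM in the allograft and 325 CPM in the native cells of this sub-cluster, so these were not like mixtures. Igf1r stood at 113.0 and 88.9 CPM and Igf2r at 145.1 and 88.9 CPM.

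Within native mesenchyme each binding protein gene had its own pattern. Igfbp2 was at 217.9 CPM in sub-cluster 7.0 and at 76.4 CPM in fibroblast sub-cluster 6.0. Of the smooth muscle or pericyte list, native cells of sub-cluster 7.0 carried Acta2 (521.8 CPM), Tagln (346.6), Myl9 (272.7) and Myh11 (86.6). The rest of that list was low in them: Cspg4 35.7, Des 10.2, Notch3 5.73 and Rgs5 1.91 CPM. Only 25 of the 189 cells of sub-cluster 7.0 (13.2%) had an Igfbp2 UMI, and 1 cell had 55. Igfbp3 and Igfbp4 were also highest there among native sub-clusters, at 647.9 and 2138 CPM. Igfbp6 showed the reverse, at 900.8 CPM in sub-cluster 7.0 against 5377 and 5783 CPM in fibroblast sub-clusters 6.0 and 6.1. Igfbp5, at 1731 CPM, was high in sub-cluster 6.0 and in native sub-cluster 7.1 (1756 CPM), but it was found in 72.8% of cluster 6 cells where Igfbp7 was found in all 611.

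Mesenchymal clusters held 96.7% of Igfbp2, 96.1% of Igfbp3, 97.9% of Igfbp5, 98.9% of Igfbp6 and 95.8% of Igfbp7 UMIs of the native library. In the allograft library they held 79.4% of Igfbp3, 96.1% of Igfbp5, 83.6% of Igfbp6 and 85.8% of Igfbp7. Outside mesenchyme, endothelial cluster 21, with 6 allograft cells, gave 14.7% of allograft Igfbp3 and 9.43% of Igfbp7 UMIs; all 15 of those Igfbp3 UMIs were in 1 cell. Allograft Igfbp6 outside mesenchyme lay mainly in cluster 3 (6.52%), neutrophil cluster 4 (5.27%) and cluster 1 (3.33%). In cluster 3 only 22 of 677 allograft cells had an Igfbp6 UMI, and 1 cell had 13 of the 47. In the native library Igfbp3 had 38 UMIs in epithelial cluster 22 and 36 in cluster 21. Igfbp7, known as a gene of vessel lining, stood at 3645 CPM in those 6 cells and 2105 CPM in 27 native endothelial cells. Glial-marker cells of the native library (cluster 19, 66 cells) stood at 1515 CPM of Igfbp7.

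Igfbp4 had a wider set of sources. Mesenchyme held 67.2% of its native UMIs and 35.8% of its allograft UMIs, and macrophage-marker clusters held 30.3% and 58.8%. In the spleen library T cell cluster 5 held 94.0% of them. Sub-cluster 5.1, with high Lef1 (637 CPM) and Ccr7 (244 CPM), genes of naive T cells, stood at 492.7 CPM of Igfbp4 in 170 cells. The Cd8a-marker sub-cluster 5.0 stood at 204.3 CPM in 275 cells, and sub-cluster 5.2 at 7.79 CPM in 157 cells. Spleen B cells of cluster 0 had 3 UMIs in 1940 cells, so the level differed strongly between lymphocytes of the same library.

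**Figure D5:**
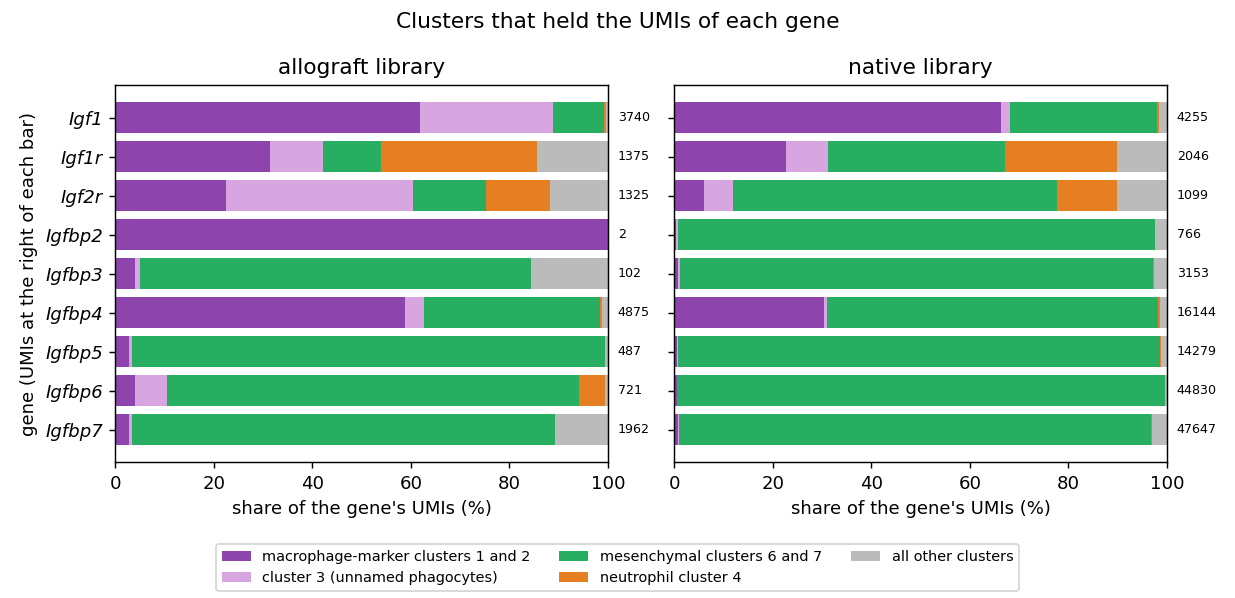
Share of each gene's UMIs (%) held by groups of clusters in the allograft (left) and native (right) libraries; the number at the right of each bar is the gene's UMIs. Macrophage-marker clusters hold 61.8% of allograft and 66.4% of native Igf1 UMIs, and mesenchymal clusters hold 98.9% of native Igfbp6 UMIs.

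The wider IGF pathway was described with a list of 36 genes for ligand, receptor, protease, adaptor and kinase functions. Igf2, the sister ligand gene, had 3 UMIs in the allograft and 1 in the native library, and was not measurable. Over all cells 11 of 32 genes measured were lower in the allograft library (19.6% of all genes measured) and 1, H19, was higher (7.19%); the list's median log2 ratio was -0.26. Among the lower genes were those that act on binding proteins: Pappa (0.903 against 7.55 CPM), Pappa2 (1 against 412 UMIs), Stc1 (5 against 224 UMIs) and Stc2 (1.65 against 11.3 CPM). Pappa and Pappa2 encode proteases that cut IGFBPs, and Stc1 and Stc2 encode their inhibitors. Ghr, the growth hormone receptor, stood at 4.16 against 20.1 CPM and Irs1, a receptor adaptor, at 0.864 against 3.19 CPM.

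In macrophage-marker clusters 3 of 27 genes of the list were lower in the allograft library (10.5% of all genes measured) and 3 were higher (6.9%), with a median log2 ratio of -0.04. The lower genes were Ghr (4 and 13 UMIs), Igf2bp1 (1 and 11 UMIs) and Igf2bp2, an RNA-binding protein gene, at 6.27 against 19.002 CPM. The higher genes were Htra1, a secreted protease gene, at 8.84 against 4.15 CPM (2.11-fold), Grb10, an inhibitor of receptor signalling, with 10 and 2 UMIs (ratio 3.25, interval 0.825 to 36.3), and H19 with 131 and 3 UMIs (ratio 29.1, interval 11.3 to 166). The insulin receptor gene Insr stood at 10.4 and 12.4 CPM and the adaptor gene Irs2 at 60.4 and 62.5 CPM, close in both libraries. Irs1 had 1 and 6 UMIs, Pappa 2 and 4, Stc1 0 and 1, Stc2 7 and 0, and Igf2 2 and 0, too few to compare.

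In mesenchyme 3 of 31 genes of the list were lower (12.7% of all genes measured), 3 higher (18%) and 25 within 2-fold. H19, the imprinted long non-coding RNA gene beside Igf2, was the furthest apart, with 1090 UMIs in the allograft and 21 in the native cells (774.5 against 2.01 CPM). That was 376.6-fold higher (251 to 625); 41 of 98 allograft cells had it, and chondrocyte sub-cluster 7.2 stood at 948.4 CPM. Foxo1, a transcription factor gene restrained by insulin and IGF signalling, stood at 183.3 against 36.6 CPM (5.02-fold higher), and Pik3r1 was 2.09-fold higher. Of the 258 allograft Foxo1 UMIs, 245 were in sub-cluster 7.2 (245.1 against 33.0 CPM). In fibroblast-marker sub-cluster 7.1 Foxo1 was not higher, at 32.6 against 44.4 CPM. Pappa2 was lower, with 0 against 410 UMIs (at least 18.4-fold against 3 UMIs), as was Stc1 with 5 against 217 UMIs. Pappa2 was among the leading genes of sub-cluster 7.0, which held 189 native cells and 1 allograft cell. Igf2bp3, with 1 against 42 UMIs, had a ratio of 0.262 (0.004 to 1.04). Ghr (69.6 and 56.5 CPM), Pappa (14.9 and 18.1), Stc2 (21.3 and 32.1), Insr (10.7 and 8.14), Irs1 (13.5 and 8.14) and Irs2 (91.0 and 113.6) lay within 2-fold in these cells.

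Genes most like each member were found by Pearson's r of log2(CPM + 1) over 26 cluster-and-library groups, among 7283 genes. The groups share libraries, and their depths differ, so r is a description. Igf1 was followed by Epb41l1 (0.925), Gas2l1 (0.914), Slc35f5 (0.908), Rnf150 (0.908) and Slc39a1 (0.906). The genes most like Igfbp4 were Gas6 (0.886), Rnase4, Vasn, Bmp2 and Nr1d1. Igf1r was led by Hdac4 (0.820), Stx11 (0.789), Csf1, Map1lc3b and Glrx, and Igf2r by Rnf19a (0.748), Chst11 (0.712), Esyt2, Sec22b and Smad3. The receptor genes therefore had no partner as close as those of the ligand.

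For the other binding protein genes the closest gene had an r between 0.946 and 0.984. Igfbp3 was most like C1qtnf2 (0.984), Ntrk2, Hspb8, Ptgis and Nkd1, and Igfbp2 was most like Abca8b (0.954), Nexn, Limch1, Mettl24 and Gria1. Igfbp5 was most like Mfap5 (0.971), Sod3, Ogn and Serping1, and Igfbp6 most like Lhfp (0.946), Eln, Nbl1, Sod3 and Mfap4. Igfbp7 was most like Serpinh1 (0.973), a collagen chaperone gene, Col6a3, Mmp2, Plat and Timp3.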

How the data were processed

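The authors deposited 3 tables of raw UMI counts per gene and cell barcode, 1 per source, made with Cell Ranger 3.1.0 per the file headers, on build mm10 per the submitters' processing notes; the annotation release is not given in the sources used here. The tables held 4611, 4626 and 4856 barcodes and 26503045, 31415458 and 28318436 UMIs in the allograft, native and spleen libraries. Cells with at least 500 genes and at most 20% mitochondrial UMIs were kept. Scrublet, as run in scanpy, removed 37, 8 and 6 cells (0.802, 0.173 and 0.124%) where loading would give 3.69, 3.70 and 3.88%, so doublets largely remain. Counts were scaled to 10000 a cell, and 2000 variable genes without the 9 genes and the pathway list gave 30 principal components, 15 neighbours and Leiden clusters at resolution 0.5 (sub-clusters 0.3). Clusters were named from 24 marker lists; 3, 10, 20 and 24 were left unnamed. The macrophage-marker class is clusters 1 and 2, the mesenchymal class 6 and 7, and the background class the B, plasma and natural killer clusters 0, 12, 13 and 18.

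UMIs were summed by class and library. CPM carry exact Poisson, shares exact binomial (Clopper-Pearson) and ratios conditional binomial 95% intervals, with 0.5 UMI added in ratios; 0 UMIs were given a limit of 3 UMIs. Ratios needed 50 cells in each library. With 1 pooled library per source there is no test, p-value or SD. Only the ratio and its interval were tested on simulated data, which were Poisson counts of known fold. The other steps were not tested in this way. The text names all 9 genes, pathway genes 2-fold apart in macrophages, 8 pathway genes fixed by name, and the 5 genes most like each member with 500 or more UMIs (candidates at 50 CPM or more in a group; 1 such gene is not reported here); further pathway genes and sub-clusters were named after their values were seen. The genes and lists were chosen with earlier results of these data known. Alternatives were other filters, doublet handling, scalings, resolutions, thresholds and cell sets. Python 3.11.15, scanpy 1.11.5, leidenalg 0.10.2, scipy 1.17.1, numpy 2.4.6, pandas 2.3.3 and scikit-learn 1.9.0 were used. Promoter windows came from RefSeq (GRCm38.p6).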

Additional observations from a re-analysis of the deposited data

Results flagged for a closer look

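Igf1 and Igfbp4 stood on opposite sides of 1 in the 2 classes. The Igf1 ratio of allograft to native was 0.634 in macrophage-marker clusters and 2.29 in mesenchymal clusters. The Igfbp4 ratio was 0.453 in macrophage-marker clusters and 1.19 in mesenchymal clusters. With 1 pooled library per source, the difference between classes was not tested. Within cluster 1 the ratios were 3.02 for Igf1 and 3.01 for Igfbp4, and within cluster 2 they were 1.02 and 0.987. The Igf1 interval in cluster 2 included 1. Within cluster 7 the ratios were 1.34 and 0.783. Inside cluster 7, Igf1 stood at 745.4 against 266.4 CPM in fibroblast-marker sub-cluster 7.1. In chondrocyte-marker sub-cluster 7.2 it went the other way, at 95.04 against 175.2 CPM. Clusters 1 and 7 thus differed in make-up between the libraries, and their ratios are not those of 1 cell type.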

How the results depend on the processing

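No gene called 2-fold apart changed direction under any alternative run; 59 of 72 values over all cells, 83 of 117 in macrophages and 93 of 117 in mesenchyme moved by less than their counting interval. Ratios inside 2-fold could cross 1: Igf1 over all cells ran from 0.897 to 1.08, and Igfbp4 in mesenchyme from 0.783 to 1.26.

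The macrophage Igf1 ratio of 0.634 was 0.734 with no cell filter, 0.703 with the stricter filter, 0.676 with called doublets kept, 0.701 with each cell given the same total, 0.809 at resolution 1.0, 0.802 with libraries clustered separately, 0.745 with the expected share of doublets removed and 0.765 over macrophage-marker sub-clusters. The allograft Igf1 share of 61.8% became 79.3% with no cell filter, 83.9% with called doublets kept, 84.7% at resolution 0.3, 82.1% at resolution 1.0, 84.4% with the 9 genes kept in clustering, 80.6% with separate clustering, 84.7% with the expected share of doublets removed and 80.6% over sub-clusters. The native share of 66.4% became 64.3% with the stricter filter and 68.4% with the expected share of doublets removed.

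The 2 genes higher in mesenchyme became 0 with median-of-ratios scaling (a shift of -0.20 in log2), 0 at 3-fold and 0 in cluster 7 alone, and 1 with equal totals, without the top cell or with separate clustering. The causes were not tested. Expected-share doublet removal, sub-clusters and cluster 7 alone were chosen after seeing the data.

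No paired analysis was possible because the replicate numbers are only accession order and nothing ties a cell to 1 of the 4 samples it was pooled from; leaving out a replicate was not possible for the same reason. Limits are the 98 allograft mesenchymal cells, doublets that remain, and free RNA; genes under 10 UMIs could not be compared.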
